A study of Mus musculus with 22 samples.

Results

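The core genes of the circadian clock were followed in mammary tissue of mice that had, or had not, been given a running wheel. The 10 genes, Arntl, Clock, Per1, Per2, Per3, Cry1, Cry2, Nr1d1, Nr1d2 and Dbp, were chosen by symbol, and all 10 were found among the 52526 gene symbols measured. Mice 7 to 8 weeks of age (female, C57BL/6J) spent 2 weeks in cages that held either a wheel to run on (running mice) or just its hub as a shelter (control mice). They received liposomes that held either PBS or clodronate, an agent that kills phagocytic cells which take the liposomes up, 24 hours before engraftment and again at engraftment. In every group 100000 EO771 mouse mammary cancer cells that express firefly luciferase were placed in the left mammary gland number 4, so no group was free of cancer cells or of liposomes. The tissue was taken 24 hours after engraftment. There were 6 control mice and 6 running mice with PBS liposomes, and 5 control mice and 5 running mice with clodronate liposomes, with 1 library for each mouse.

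The mammalian clock is a feedback loop of transcription. The proteins of Arntl (also called Bmal1) and Clock pair up and activate genes that carry E-box motifs, among them the Per and Cry genes, whose proteins return to the nucleus and repress that pair. The REV-ERB receptors encoded by Nr1d1 and Nr1d2 repress Arntl, and Dbp is an output gene driven directly by the activator pair, so in tissues such as fat and mammary gland Dbp and Arntl peak at different times of day. The time of day at which tissue was taken is not given in the sources used here, and a single time point per mouse cannot separate a shifted rhythm from a changed level.

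Libraries were made by QuantSeq, which reads each transcript once near its 3' end, so levels of different genes are comparable without dividing by gene length. Values were CPM, read counts scaled to a common library total. Steps between the values put the depth at 13256467 to 20484578 reads per mouse, with a median of 16293026. Every value below 1 CPM had been raised to 1 before deposit, which hid genes with up to 13 to 20 reads, depending on the mouse. All 10 clock genes were above this floor in at least 5 mice and entered the tests with 15138 genes in all. The label of the tissue was checked against marker lists: all 8 adipocyte markers and all 8 mammary epithelium markers passed the filter, with Car3 at 9618 CPM and Krt14 at 333 CPM on average. All 8 skeletal muscle markers and all 12 lymphocyte markers passed as well. The summed muscle markers ranged from 21.5 to 26777 CPM over the mice, so the samples differed widely in muscle RNA. Of 4 markers of neurons and glia, Snap25 and Gfap were at the floor in every mouse, while Mbp, a myelin gene, passed the filter at 35.8 CPM on average (21.7 to 47.8).

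The activators differed widely in level. Clock, which encodes the partner of the Arntl protein, ranged from 20.5 to 39.3 CPM over the 22 mice and had the smallest spread within groups of the 10 genes, with an SD of 0.27 on the log2(CPM + 1) scale. Arntl was the lowest of the 10 genes in 22 of 22 mice, with a mean of 2.85 CPM, and its SD within groups was 0.62. In control mice with PBS liposomes Arntl ranged from 1.52 to 7.62 CPM with a median of 2.94, and in running mice with PBS liposomes from 1 to 3.30 CPM with a median of 1.70. Control mice with clodronate liposomes had 1.03, 4.57, 1.95, 1 and 1.74 CPM of Arntl. Wheel-running mice with clodronate liposomes had 8.68, 1.73, 4.98, 3.22 and 1.49 CPM. The high mice were thus spread over both arms, all groups overlapped, and 2 of 22 mice were at the floor. Overlap is what most genes showed: between groups that differ in running or in liposomes alone, 0.264% to 1.27% of all 15138 genes did not overlap. The highest value, 8.68 CPM, rested on 126 reads, with an exact Poisson interval of 7.23 to 10.3 CPM at the 95% level that covers counting error only.

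Among the repressors, Per3 was the most abundant, at 42.4 CPM on average, followed by Per2 at 28.7, Cry2 at 26.4, Per1 at 22.1 and Cry1 at 10.5. The PER and CRY proteins form the complex that inhibits the activator pair. Cry2 ranged from 23.6 to 44.7 CPM with a median of 28.6 in control mice and from 10.2 to 41.3 CPM with a median of 23.7 in running mice, both with PBS liposomes. With clodronate liposomes, Cry2 was 34.6, 16.3, 20.3, 40.6 and 27.8 CPM in control mice. It was 31.1, 34.1, 12.3, 13.5 and 17.5 CPM in running mice. Low Cry2 values were present in 3 of the 4 groups, and the groups overlapped.

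Per3 followed a similar order of mice. With PBS liposomes it ranged from 29.6 to 57.9 CPM with a median of 43.4 in control mice and from 20.5 to 60.1 CPM with a median of 47.2 in running mice. With clodronate liposomes it was 55.5, 29.0, 28.3, 54.4 and 35.9 CPM in control mice. It was 42.4, 60.1, 34.6, 29.6 and 42.2 CPM in running mice. Every group therefore held mice with high and mice with low Per3. Over all mice, Per1 ranged from 12.8 to 34.1 CPM, Per2 from 16.6 to 45.7 and Cry1 from 4.74 to 20.02.

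The REV-ERB genes were at 38.6 CPM (Nr1d1) and 52.8 CPM (Nr1d2) on average. Nr1d1 spanned 15.4 to 95.2 CPM, and its highest value was in running mouse 1 with PBS liposomes, which also had the highest Nr1d2, 78.4 CPM, and the highest Dbp. Dbp, a PAR bZIP transcription factor, was the most abundant member in 20 of 22 mice. With PBS liposomes it ranged from 68.9 to 110.1 CPM with a median of 88.5 in control mice and from 60.9 to 134 CPM with a median of 102 in running mice. With clodronate liposomes Dbp was 81.2, 79.2, 53.1, 52.9 and 109 CPM in control mice. It was 82.2, 86.4, 43.3, 60.3 and 69.5 CPM in running mice. The lower values were thus found mostly with clodronate liposomes, with overlap between all groups. The ratio of Dbp to Arntl ranged from 8.70 to 134 over the mice, where its upper values rest on Arntl at or near the floor.

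By mean level the order was Dbp, Nr1d2, Per3, Nr1d1, Per2, Clock, Cry2, Per1, Cry1 and Arntl. Dbp exceeded Nr1d2 in 21 of 22 mice, Per1 exceeded Cry1 in 22 and Cry1 exceeded Arntl in 22. Neighbours in the middle did not separate beyond the spread between mice: Per2 exceeded Clock in 10 of 22 mice, Clock exceeded Cry2 in 13 and Per3 exceeded Nr1d1 in 13.

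**Figure D1:**
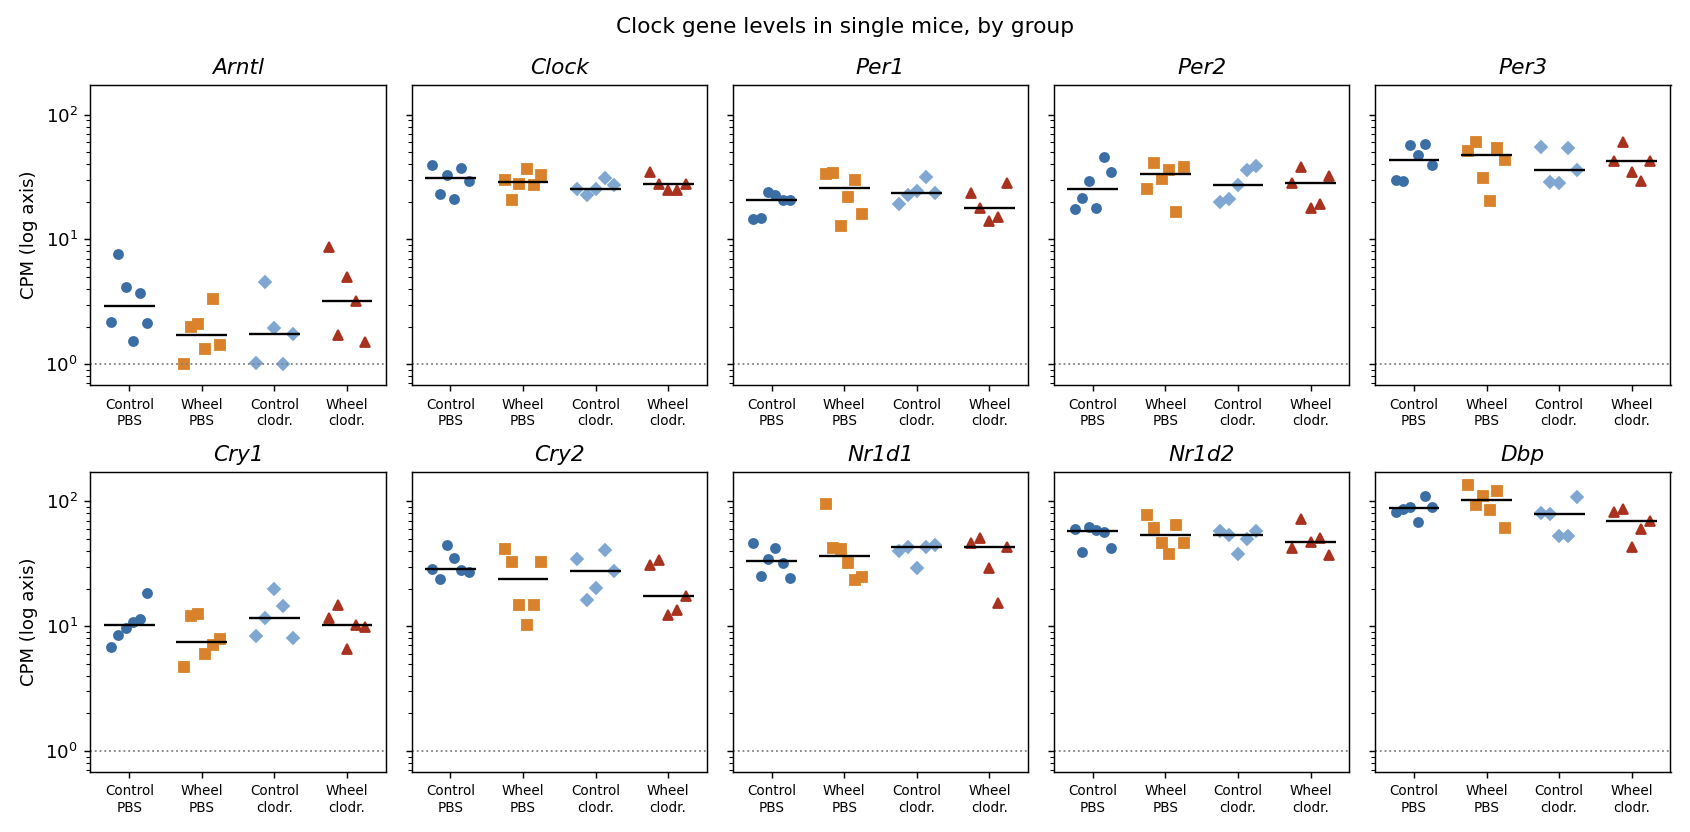
CPM of each clock gene (log axis) in every mouse, by group, with the group median as a black line and the floor of 1 CPM as a dotted line. Arntl lies near the floor in all groups, and Dbp was the highest of the 10 genes in 20 of 22 mice.

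In the GRCm38 annotation (GENCODE M21), Arntl lies on chromosome 7 from 113207465 to 113314126 and Dbp on the same chromosome from 45705088 to 45710203. Cry2 lies on chromosome 2 from 92403646 to 92434043, and Per3 on chromosome 4 from 151003652 to 151044665. The last 1000 bases of 3 of the 10 genes, where reads of this method fall, overlap another gene: Nr1d1 overlaps Thra and Dbp overlaps Sphk2, both on the opposite strand, and Per3 overlaps Camta1 on the same strand. Thra was at 87.0 CPM, Sphk2 at 20.9 CPM and Camta1 at 19.4 CPM on average. Whether the counting used the strand is not given in the sources used here, so reads of the pairs on opposite strands may not have been told apart. Counting by strand would not separate Per3 from Camta1, so reads at the end of Per3 may not have been told apart from those of Camta1. Reads set aside as ambiguous made up 0.48% to 0.61% of each library, and how many came from these genes is not known.

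Promoters of 9 of the 10 genes (13 start sites, 250 bases before to 50 after the start, RefSeq, GRCm38.p6) were searched on both strands for motifs of the clock loop. Per2 was not in the table. The E-box (CACGTG), the site of the activator pair, was in 2 of the 9 genes, Cry1 and Per1, and in 7.15% of the 32851 promoters of all genes. The variant E'-box (CACGTT) was in 3, Cry1, Cry2 and Nr1d1, and in 4.68% of all promoters. The D-box (TTATGTAA or TTACGTAA), bound by Dbp and its relatives, was in Per3, with 2 copies starting at -205 and -158 from the start site, and in 1.06% of all promoters. The core of the REV-ERB element (TAGGTCA) was in Arntl and in 2.61% of all promoters, and the cyclic AMP element (TGACGTCA) was in 0 of the 9 genes and in 1.79% of all promoters. The shares of all promoters count start sites. Counted that way, the members' numbers with each motif were the same, out of 13 start sites in place of 9 genes. A match describes letters in this window and is not evidence of binding. The promoters of Arntl (its second start site, chr7:113207261-113207560, plus strand), which had the element of the receptors that repress it, and of Cry2 (chr2:92434020-92434319, minus strand) and Per3 (chr4:151044616-151044915, minus strand), which varied together, are shown with the matches in capitals, in that order.
Arntl: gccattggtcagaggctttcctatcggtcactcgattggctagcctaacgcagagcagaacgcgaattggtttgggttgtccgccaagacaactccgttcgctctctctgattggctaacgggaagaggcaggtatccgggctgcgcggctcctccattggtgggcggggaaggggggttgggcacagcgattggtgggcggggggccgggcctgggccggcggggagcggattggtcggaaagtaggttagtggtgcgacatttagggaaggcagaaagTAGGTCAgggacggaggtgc
Cry2: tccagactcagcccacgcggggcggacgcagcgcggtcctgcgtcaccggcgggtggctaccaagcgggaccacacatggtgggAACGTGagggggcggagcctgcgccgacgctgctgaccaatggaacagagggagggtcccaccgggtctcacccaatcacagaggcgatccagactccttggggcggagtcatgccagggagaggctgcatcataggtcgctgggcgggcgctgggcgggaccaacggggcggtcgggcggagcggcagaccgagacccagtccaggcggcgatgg
Per3: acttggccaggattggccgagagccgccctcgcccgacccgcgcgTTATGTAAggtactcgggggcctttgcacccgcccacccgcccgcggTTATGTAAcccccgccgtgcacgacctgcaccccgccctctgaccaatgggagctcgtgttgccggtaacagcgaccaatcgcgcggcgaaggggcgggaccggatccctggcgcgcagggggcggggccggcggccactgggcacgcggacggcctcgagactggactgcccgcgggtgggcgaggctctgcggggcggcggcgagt

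The first question was whether wheel running changed the clock genes. It was tested with limma on log2(CPM + 1) over all 15138 genes, with Benjamini-Hochberg adjustment, and the p-values reflect the spread between mice. With PBS liposomes, 0 of 10 clock genes passed an adjusted p of 0.05, beside 0% of all genes (0 genes; 744 genes and 0 clock genes had an unadjusted p under 0.05 in limma). With clodronate liposomes 0 of 10 passed, beside 0.00661% of all genes, and 1579 genes and 0 clock genes had an unadjusted p under 0.05. The gene that passed there was Gm7536, near the floor and chosen after its values were seen. All 12 lymphocyte markers were higher in running mice there, with 0 of 12 passing limma's adjusted p, 12 at an unadjusted p under 0.05 and a median difference of 2.48, and their part in the differences of clock genes was not tested. Averaged over both liposomes, 0 of 10 passed, beside 0% of all genes, with 1224 genes and 0 clock genes at an unadjusted p under 0.05 in limma.

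Averaged over liposomes, the clock gene with the smallest p for running was Cry2, while within each liposome it was Arntl, given with the interaction. Its mean was 31.2 ± 7.55 CPM (SD, n = 6) in control mice and 24.4 ± 12.7 CPM (SD, n = 6) in running mice with PBS liposomes. With clodronate liposomes it was 27.9 ± 9.97 CPM (SD, n = 5) and 21.7 ± 10.2 CPM (SD, n = 5). The difference averaged over liposomes was -0.44 (log2, SE 0.236, 95% interval -0.93 to 0.05, limma adjusted p = 0.643). It did not exceed the spread between mice. Without the 5 mice with high lymphocyte scores, described further on, it was -0.08, and with that score as a covariate -0.13. With clodronate liposomes alone the Cry2 difference was -0.39 over all mice and turned to 0.29 without those 5 mice, which leaves 2 running mice in that group. In the same average all 12 lymphocyte markers were higher in running mice (median 1.27, 9 at an unadjusted p under 0.05 in limma). With PBS liposomes alone 9 of 12 were higher (median 0.11, 0 at such a p). All 8 skeletal muscle markers were lower in the average (median -1.56, 0 at such a p). Dividing cell markers were lower for 6 of 6 genes in the average (median -0.26) and with PBS liposomes (median -0.84). With clodronate liposomes 5 of 6 dividing cell markers were higher (median 0.26), with 0 at such a p in any of these comparisons. Of these markers 0 passed limma's adjusted p, and their part in the Cry2 difference was not tested. For Dbp the interval was -0.29 to 0.33, for Nr1d2 -0.30 to 0.26 and for Clock -0.24 to 0.27, so larger differences of these genes fell outside the 95% intervals. The median difference over the 10 genes was 0.00, beside -0.04 over all genes tested.

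Clodronate liposomes were compared with PBS liposomes next, with the same tool. In control mice 0 of 10 clock genes passed, beside 0% of all genes, with 1058 genes and 0 clock genes at an unadjusted p under 0.05 in limma. In running mice 0 of 10 passed, beside 0.00661% of all genes (again Gm7536), with 1759 genes and 1 clock gene, Dbp, at an unadjusted p under 0.05. Averaged over activity 0 of 10 passed, beside 0.205% of all genes, all 31 of them lower with clodronate, with 1579 genes and 1 clock gene, Dbp, at an unadjusted p under 0.05. The median over the 10 genes was -0.06, beside -0.04 over all genes.

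Dbp had the smallest p of the 10 genes in that comparison. Its mean was 88.1 ± 13.4 CPM (SD, n = 6) with PBS and 75.002 ± 23.2 CPM (SD, n = 5) with clodronate in control mice. In running mice it was 100.7 ± 26.3 CPM (SD, n = 6) and 68.3 ± 17.4 CPM (SD, n = 5). The difference averaged over activity was -0.41 (log2, SE 0.150, 95% interval -0.72 to -0.10), with an unadjusted p of 0.0118 and an adjusted p of 0.298 in limma, so it failed the correction over all genes. In running mice it was -0.55 (limma adjusted p = 0.312). In the 17 mice with a low lymphocyte marker score, described further on, that difference was -0.18, and the difference averaged over activity was -0.22. Over the alternatives the unadjusted limma p of that average reached 0.242. The share of reads assigned to genes also differed with group: it was 57.4% to 58.6% in the 5 running mice with clodronate liposomes, 58.5% to 63.9% in running mice with PBS liposomes, which overlaps it, and 58.8% to 64.6% in the control mice of both liposomes. Scaled to assigned reads, the Dbp difference was -0.48 in running mice and -0.36 averaged over activity. The markers of macrophages, the cells that clodronate liposomes target, were lower for 7 of 8 genes, with 0 of 8 passing limma's adjusted p, 1 at an unadjusted p under 0.05, and a median difference of -0.25. In control mice 8 of 8 were lower (median -0.61, 1 at an unadjusted p under 0.05), and in running mice 5 were lower and 3 higher (median -0.19, 0 at an unadjusted p under 0.05), with 0 passing limma's adjusted p in either. Dividing cell markers were lower with clodronate for 6 of 6 genes in control mice (median -0.73) and higher for 5 of 6 in running mice (median 0.29), with 0 passing and 0 at an unadjusted p under 0.05 in limma. Fibroblast markers were lower for 6 of 6 genes (median -0.41) and adipocyte markers for 8 of 8 (median -0.41), with 3 and 4 at an unadjusted p under 0.05 and 0 passing limma's adjusted p. Markers of other cells were higher with clodronate averaged over activity, lymphocytes for 12 of 12 genes (median 0.89) and skeletal muscle for 8 of 8 (median 1.52), with 0 passing and 0 at an unadjusted p under 0.05 in limma. The lymphocyte average joins opposite directions. In control mice 11 of 12 lymphocyte markers were lower with clodronate (median -0.50), with 0 passing and 0 at an unadjusted p under 0.05 in limma. In running mice the 12 lymphocyte markers were all higher with clodronate (median 2.00), with 11 at an unadjusted p under 0.05 and 0 passing limma's adjusted p. Their part in the Dbp difference was not tested. Fewer cells of a type and less RNA per cell cannot be told apart in such bulk tissue.

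The interaction asks whether running had another effect with clodronate than with PBS liposomes. Of the clock genes 0 of 10 passed, beside 0% of all genes, with 1147 genes and 1 clock gene, Arntl, at an unadjusted p under 0.05 in limma. The Arntl difference between running and control mice was -0.59 (SE 0.343) with PBS and 0.64 (SE 0.376) with clodronate, and the interaction was 1.23 (SE 0.509, 95% interval 0.17 to 2.28, unadjusted p = 0.0243, limma adjusted p = 0.625). These are log2 differences of a gene within a few CPM of the floor, where the added 1 shrinks differences, and with 5 added in place of 1 the interaction was 0.61. Scaled to assigned reads it was 1.26. With the lymphocyte score as a covariate it was 1.08 with an unadjusted p of 0.0658 in limma. Lymphocyte markers had a positive interaction for 12 of 12 genes (median 2.36, 4 at an unadjusted p under 0.05) and dividing cell markers for 6 of 6 (median 1.12, 0 at an unadjusted p under 0.05), with 0 of either passing limma's adjusted p. Skeletal muscle markers had a positive interaction for 8 of 8 (median 0.64) and mammary epithelium markers a negative one for 7 of 8 (median -0.28). In these lists 0 passed and 0 were at an unadjusted p under 0.05 in limma. Their part in the Arntl interaction was not tested. The same 4 groups enter all 7 comparisons, which are therefore not independent.

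**Figure D2:**
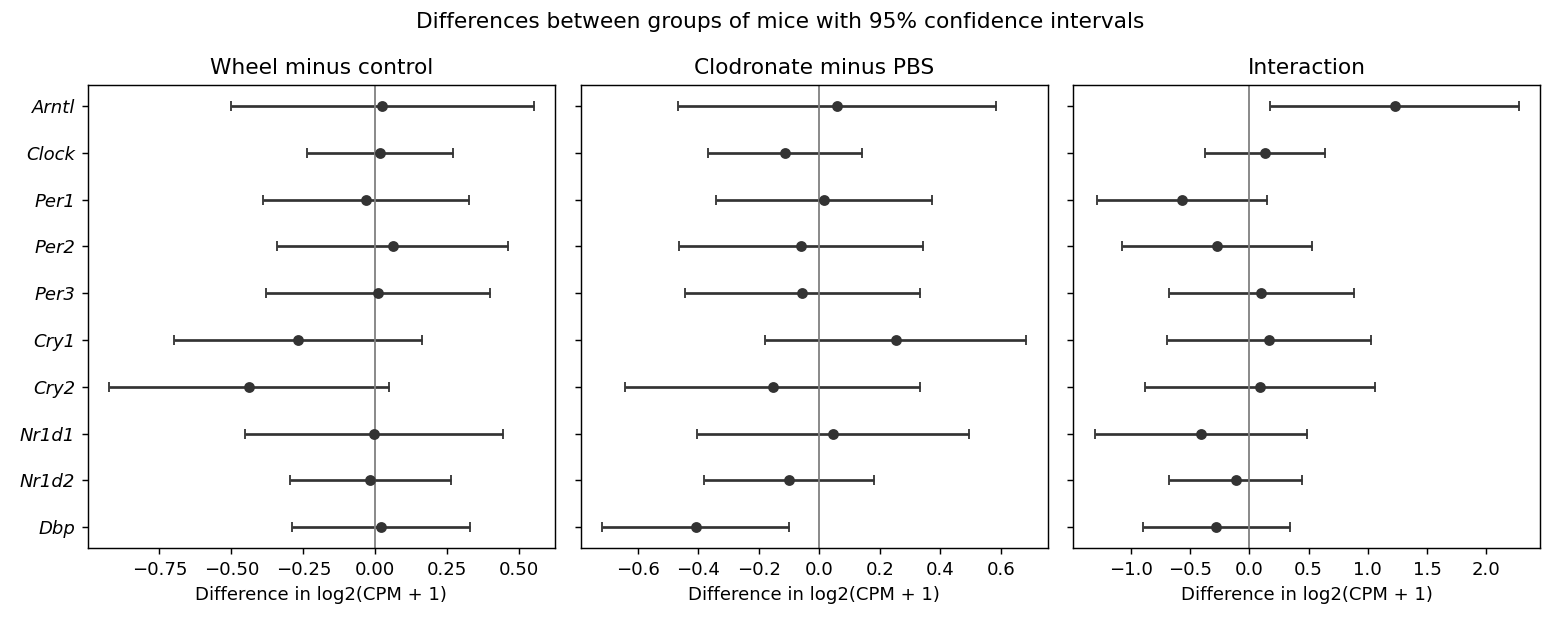
Differences in log2(CPM + 1) for each clock gene, as points with 95% confidence intervals from limma, for running (averaged over liposomes), for clodronate (averaged over activity) and for their interaction. All intervals cross 0 except those of Dbp for clodronate, -0.72 to -0.10, and Arntl for the interaction, 0.17 to 2.28, and neither passed the adjustment over all genes.

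A further 20 genes of the clock and its kinases, ligases and outputs were examined, of which 18 were tested. Npas2, a relative of Clock, was at the floor in 21 of 22 mice and Fbxl21, an F-box protein, in 19, so these 2 were not tested. In all 7 comparisons 0 of the 18 passed limma's adjusted p, beside at most 0.205% of all genes. For clodronate averaged over activity 3 of the 18 had an unadjusted p under 0.05 in limma, for running averaged over liposomes 1 and for the interaction 1. Over all 15138 genes the numbers there were 1579, 1224 and 1147. Bhlhe40, a repressor of E-box genes, had a difference of -0.61 with clodronate averaged over activity (SE 0.203, unadjusted p = 0.00645, limma adjusted p = 0.241). Csnk1d, a kinase that acts on PER proteins, differed by -0.25 and Cipc, a Clock-interacting protein, by -0.43 there, with unadjusted p of 0.0270 and 0.0415. Hlf, a relative of Dbp, had an interaction of -0.88 (SE 0.298, unadjusted p = 0.00722, limma adjusted p = 0.613), and Wee1, a cell cycle kinase, differed by -0.51 with running (unadjusted p = 0.0464). Within single arms, 1579 of 15138 genes had an unadjusted p under 0.05 in limma for running with clodronate liposomes. Of the 18, 2 had such a p, both lower in running mice. Hlf was among them, with a difference of -0.50 (unadjusted p = 0.0311). For clodronate, 1058 of 15138 genes in control mice and 1759 in running mice had such a p. Bhlhe40 and Csnk1d differed by -0.72 and -0.34 in control mice (unadjusted p = 0.0199 and 0.0310 in limma). Hlf differed by -0.59 in running mice (unadjusted p = 0.0102 in limma). None of these clock genes passed limma's adjustment. Tef, another relative of Dbp, was the most abundant of the 20, at 146 CPM on average.

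The genes were next compared from mouse to mouse, on log2(CPM + 1) with the mean of each group removed. Over 22 mice, 29 of the 45 pairs of clock genes had a positive Pearson r and 16 a negative one, with a median of 0.14. Over the 17 mice with low lymphocyte scores 25 were positive, with a median of 0.04, and with upper-quartile scaling over 22 mice 32 were positive, with a median of 0.23. Arntl was negative with 8 of the other 9, from -0.30 with Cry2 to -0.03 with Cry1, and 0.12 with Dbp, and none of its pairs had an unadjusted permutation p under 0.05. Over the 17 mice with low lymphocyte scores its r was also positive with Clock, Per1 and Cry1. Of the 45 pairs, 6 had such a p, all with a positive r. These were Per3 with Cry2, Nr1d2 and Per1, Cry2 with Nr1d1 and Nr1d2, and Per2 with Cry1. Relations with Cry2 and Per3 were common among all genes. In fits described further on, 3105 of 15137 genes had an unadjusted p under 0.05 in limma on Cry2 and 2909 on Per3. Of the other 9 clock genes, 3 had such a limma p on each. On Per2 and Cry1 the numbers of genes were 1078 and 548.

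The closest pair was Per3 and Cry2, with r = 0.758 (permutation p = 0.00018) and rho = 0.704 (permutation p = 0.00034), and r = 0.688 without the 2 mice farthest from the median. For Per3 and Nr1d2, r was 0.630 and rho 0.601 (permutation p = 0.00503 and 0.00733), and r was 0.495 without the 2 farthest mice. For Cry2 and Nr1d1, r was 0.560 and rho 0.595 (permutation p = 0.0253 and 0.0110), and r was 0.459 without those 2. Over the 17 mice with low lymphocyte scores the r of Per3 with Cry2 was 0.714. No p was computed without the 2 farthest mice.

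**Figure D3:**
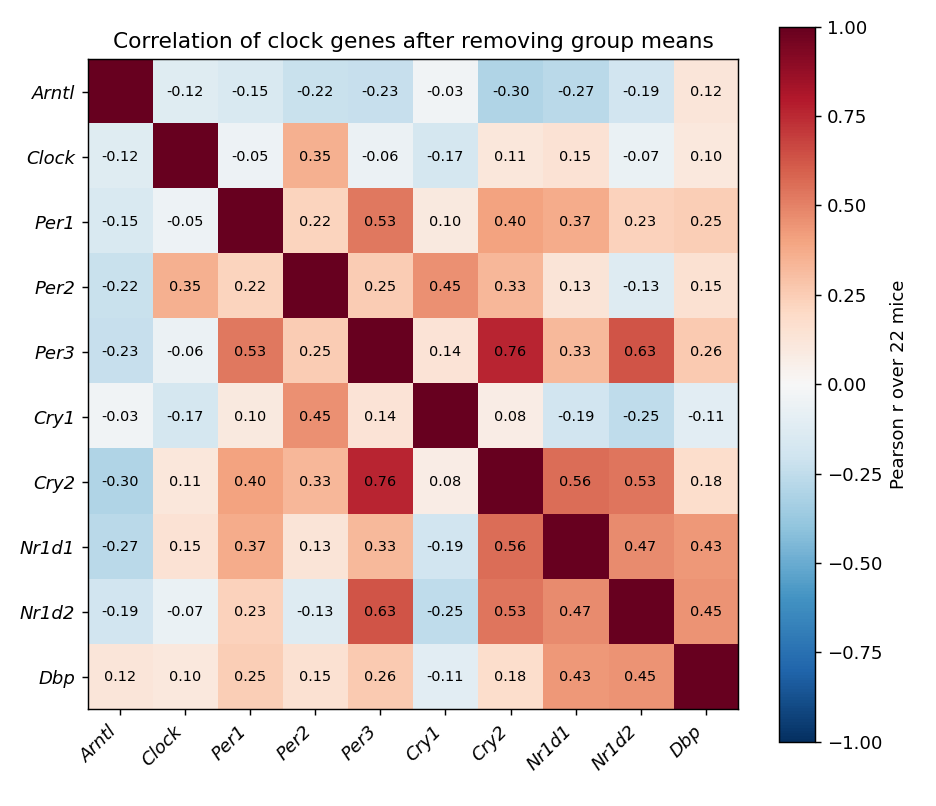
Pearson r over 22 mice between clock genes, on log2(CPM + 1) with group means removed, from blue (negative) to red (positive). The highest r is 0.76 between Per3 and Cry2. The row of Arntl is negative with 8 of 9 genes, and none of its pairs had an unadjusted permutation p under 0.05. Over the 17 mice with low lymphocyte scores its r was also positive with Clock, Per1 and Cry1.

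All genes were then fitted on the level of a single clock gene with the 4 group means in the model, first on Arntl and Dbp. On Arntl 0 of the other 9 clock genes passed an adjusted p of 0.05 in limma, beside 0% of all genes, with 1068 genes and 0 clock genes at an unadjusted p under 0.05. On Dbp 0 of 9 passed, beside 0% of all genes, with 953 genes and 1 clock gene at an unadjusted p under 0.05. The gene outside the clock lists with the highest r to Arntl was Gm17435, with 0.73, followed by Gm4707, E130308A19Rik, Ormdl2 and Fam241b, of which Gm17435 and Gm4707, at means of 1.07 and 1.19 CPM, lie near the floor, and the lowest was Nf1, with -0.78, then Zbtb12, Gm42778, Xpnpep3 and Abhd15. For Dbp the highest were Mfsd4b4, with 0.72, Clpx, Cops7a, Fam136a and Gyg, and the lowest Slc2a4rg-ps, with -0.80, Crebbp, Znhit6, Acbd3 and Gm32856, the last also near the floor at 1.22 CPM. These were picked by rank among 15137 genes over 22 mice and carry no test.

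The other 8 clock genes were used in the same way after the data had been seen. On Clock 0 of 9 passed, beside 0.00661% of all genes (Ralgps2, chosen after its values were seen, with a slope of -3.76), with 1291 genes and 0 clock genes at an unadjusted p under 0.05 in limma. On Per1, Per2, Cry1, Nr1d1 and Nr1d2 0 of 9 passed for each, beside 0% of all genes, with 1235, 1078, 548, 998 and 1548 genes and 1, 0, 1, 3 and 4 clock genes at an unadjusted p under 0.05 in limma. On Cry2 1 of 9 passed, beside 5.24% of all genes, with 3105 genes and 3 clock genes at an unadjusted p under 0.05 in limma. On Per3 1 of 9 passed, beside 3.14% of all genes, with 2909 genes and 3 clock genes at such a p. Those that passed were Per3 on Cry2 and Cry2 on Per3, and Cry2 no longer passed on Per3 without running mouse 4 with PBS liposomes (0 of 9). Per3 had a slope of 0.60 on Cry2 (SE 0.124, limma adjusted p = 0.00944). Of the 18 other clock genes tested, 2 passed on Cry2 and 1 on Per3, beside the 5.24% and 3.14% of all genes. Tef had a slope of 0.44 on Cry2 and 0.53 on Per3 (limma adjusted p = 0.00928 and 0.0179). Timeless, which is known in DNA replication as well as in clock work, had a slope of -0.89 on Cry2 (limma adjusted p = 0.0273).

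Over all 22 mice, 793 genes passed on Cry2, 357 with a positive slope, and 475 on Per3, 154 with a positive slope. Most of these calls were lost without the 5 mice with high lymphocyte scores, described further on, where 4 genes passed on Cry2 and 84 on Per3. With the lymphocyte score as a covariate 13 and 78 passed, and with the adipocyte score as a covariate 320 and 34. The genes named next for Cry2 and Per3 were chosen after their values were seen. Closest to Cry2 was Mgll, the monoacylglycerol lipase of fat cells, with the highest r of 15137 genes, 0.944, and rho = 0.929, and r = 0.926 without the 2 farthest mice. Since it was picked by that rank, these values carry no test. Its slope on Cry2 was 0.60 (SE 0.0720), and over the 17 mice with low lymphocyte scores r was 0.930. Next were Grina, Atp9a, Sort1 and Chp1, and the lowest r values belonged to Fam111a, with -0.87, Slc15a3, Nxf1, Traf7 and Rps3a1. For Per3 the highest were Pygb, a glycogen phosphorylase, with 0.86, Csad, B430010I23Rik, Nfib and Selenbp1. The lowest were Lrp8, with -0.86, Ccna2, Utp20, Hmgb2 and Asf1b, and Ccna2, a cyclin, is a gene of dividing cells.

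Cell type markers also varied with Cry2, Per3 and Tef. Relations with 12 marker lists were computed for 12 genes, the 10 members with Tef and Hlf. Of these 144 relations 30 had an unadjusted permutation p under 0.05. Such relations were common among all genes. Of 15138 genes, 3033 had an unadjusted p under 0.05 in limma on the adipocyte score and 2819 on the dividing cell score, with 3 clock genes on each. Fits over all genes covered 4 of the 12 lists. Of 10 clock genes, 2 passed in a fit on the adipocyte marker score, the mean log2(CPM + 1) of 8 genes, beside 6.24% of all genes: Cry2 with a slope of 1.19 (limma adjusted p = 0.00132) and Per3 with 0.75 (limma adjusted p = 0.0310). In a fit on the dividing cell score (6 genes, Top2a the most abundant) 2 passed, beside 4.21% of all genes, again Cry2 with -0.33 (limma adjusted p = 0.0240) and Per3 with -0.28 (limma adjusted p = 0.00897). On the skeletal muscle score 0 of 10 passed, beside 4.75% of all genes, with 2469 genes and 0 clock genes at an unadjusted p under 0.05 in limma. The summed adipocyte markers ranged from 11685 to 29684 CPM over the mice and those of dividing cells from 11.3 to 296 CPM, with 0 markers of either list at the floor in every mouse. Cry2 and the adipocyte score had r = 0.814 and rho = 0.794, and r = 0.769 without the 2 mice farthest from the median (permutation p = 1e-05 for both, the smallest that 100000 permutations can give). With the endothelium score Per3 had r = 0.665 and rho = 0.552 (permutation p = 0.00368 and 0.0193), and r = 0.677 without the 2 farthest mice. For Cry2 and that score r was 0.581 and rho 0.438 (permutation p = 0.00843 and 0.0534), and r was 0.499 without those 2. With the fibroblast score Per3 had r = 0.594 and rho = 0.539 (permutation p = 0.00744 and 0.0169), and r = 0.618 without the 2 farthest mice. For Cry2 and that score r was 0.537 and rho 0.502 (permutation p = 0.00794 and 0.0133), and r was 0.612 without those 2. Per3 and the macrophage score had r = -0.484 and rho = -0.531 (permutation p = 0.0233 and 0.0141), and r = -0.489 without the 2 farthest mice, while Cry2 with that score had r = -0.280 and rho = -0.398 (permutation p = 0.234 and 0.0965), and r = -0.256 without those 2. Dbp and the macrophage score had r = -0.495 and rho = -0.499 (permutation p = 0.0220 and 0.0268), and r = -0.414 without the 2 farthest mice, so within groups they went in opposite directions, whereas both were lower on average with clodronate. Other relations of the 10 members with an unadjusted permutation p of r under 0.05 were those of Clock, Arntl and Per2 with the brown and beige fat score, Per1 and Arntl with fibroblasts, Per1 with mammary epithelium, Per2 with adipocytes and Nr1d2 with dividing cells. Tef had such a p with the adipocyte, mammary epithelium, macrophage, dividing cell, fibroblast and endothelium scores. Hlf had it with mammary epithelium, macrophages and dividing cells. Cry2, Per3 and Tef also had such a p with the lymphocyte score, and all are counted among the 30. Their r is not given, since that score fell into clusters, as described next.

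The lymphocyte score fell into separate clusters. It lay between 4.24 and 5.73 in 5 mice, control mouse 2 and running mouse 3 with PBS liposomes and running mice 3, 4 and 5 with clodronate liposomes, and between 1 and 1.39 in the other 17, so no pooled correlation is given. The sum of its 12 markers ranged from 12.0 to 798 CPM, and its most abundant gene was Ms4a1, at up to 146 CPM. In a fit on this score 0 of 10 clock genes passed, beside 7.29% of all genes, with 3114 genes and 3 clock genes at an unadjusted p under 0.05 in limma. With this score in the fit as a covariate, the slope of Per3 on Cry2 was 0.58 (limma adjusted p = 0.0778), without those 5 mice it was 0.61 (limma adjusted p = 0.0995), and with the adipocyte score in the fit it was 0.55 (limma adjusted p = 0.177). The slope thus stayed near its size while the adjusted p no longer passed. The part of cell composition in these relations was not tested.

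**Figure D4:**
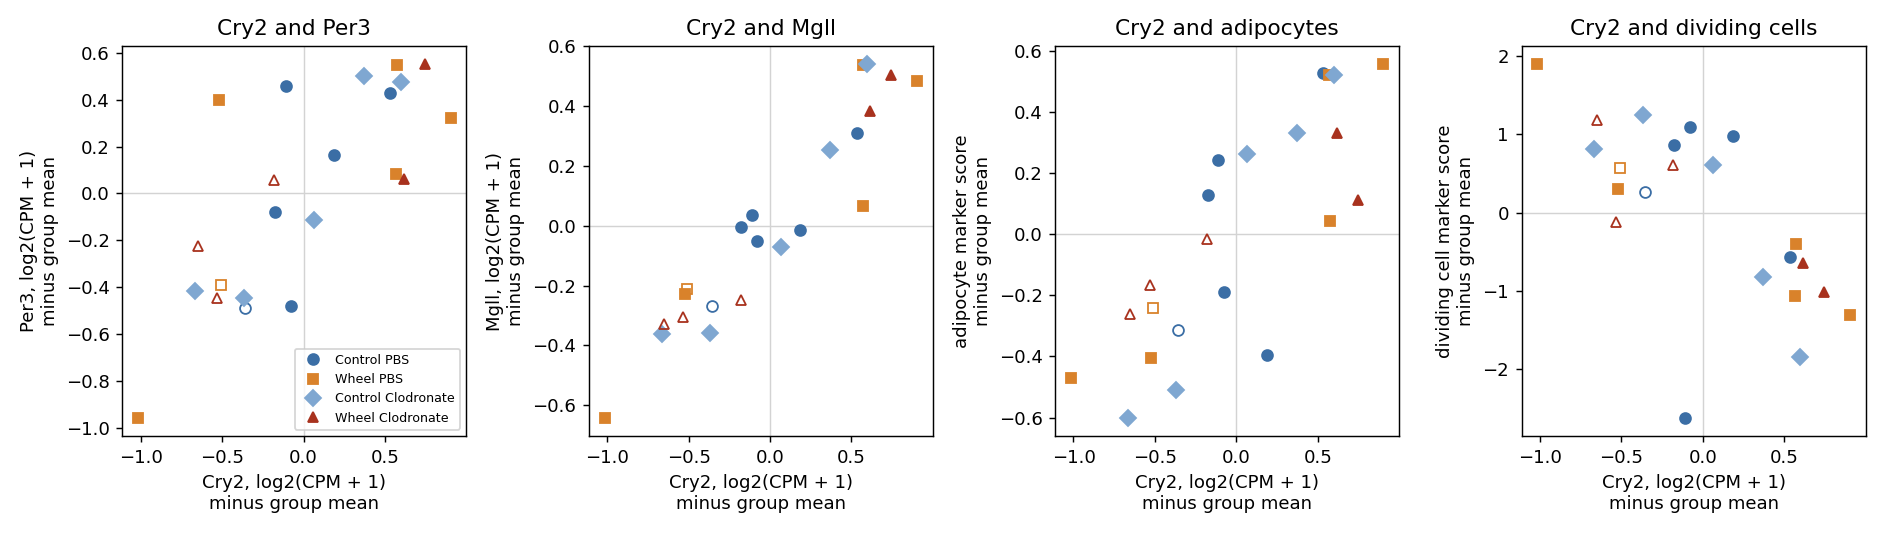
Cry2 in each of 22 mice against Per3, Mgll, the adipocyte score and the dividing cell score, all as differences from the group mean in log2(CPM + 1). Open symbols mark the 5 mice with a lymphocyte score above 3, and mice with more Cry2 than their group tended to have more Per3 and Mgll (r = 0.76 and 0.94). Exceptions for Per3 were running mouse 5 (Cry2 -0.52, Per3 0.40) and control mouse 5 (Cry2 -0.11, Per3 0.46), both with PBS liposomes. Smaller exceptions for Per3, both with clodronate liposomes, were running mouse 5 (Cry2 -0.18, Per3 0.06) and control mouse 5 (Cry2 0.06, Per3 -0.11). Exceptions for Mgll were control mice 4 (Cry2 0.19, Mgll -0.01) and 5 (Cry2 -0.11, Mgll 0.03) with PBS liposomes. Control mouse 5 with clodronate liposomes was another (Cry2 0.06, Mgll -0.07).

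Inputs that reach the clock from outside were examined through Per1, whose transcription is known to respond to glucocorticoids and to cell stimulation. Over 22 mice, the 8 glucocorticoid-responsive genes had r from -0.24 to 0.41 with Per1, with a median of 0.05, and the 8 immediate early genes from -0.18 to 0.42, with a median of 0.02. Zbtb16 and Junb had the highest of these values. Some depended on a few mice: for Sgk1 r went from 0.29 to 0.50 without the 2 mice farthest from the median and was also 0.50 over the 17 mice with low lymphocyte scores, and for Fos it went from 0.07 to 0.26 and 0.31. Others came nearer to 0 in the same 2 checks: for Egr1 r went from 0.22 to 0.04 and 0.03, and for Tsc22d3 from -0.24 to -0.17 and -0.003. Per1 itself lay between 12.8 and 34.1 CPM, with no group apart from the others.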

How the data were processed

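Mammary tissue of 22 mice was profiled by 3' sequencing (QuantSeq 3' FWD). The submitters' processing notes name STAR 2.5.3a and GRCm38. The deposited values are a signal per gene in CPM, read counts which the authors scaled over all reads, 4 rows of unassigned reads included, with values below 1 raised to 1. Assigned reads made up 57.4% to 64.6% of each library. No library was a copy of another (0 identical). Of the symbols, 106 occurred repeatedly and were each kept at their highest mean level.

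Genes above 1 CPM in at least 5 mice were tested on log2(CPM + 1) with limma 3.58.1 in R 4.3.3 (4 group means, variance trend, Benjamini-Hochberg adjustment), so fold changes are on that scale and understate those of low genes. The code was tested on simulated data. Correlations used 100000 two-sided permutations of mice within groups (scipy 1.17.1). In all, 144 relations of 12 genes (the 10 members, Tef and Hlf) with 12 marker lists were computed. Named genes were the 10 members, the 20 other clock genes, the 5 highest and 5 lowest correlations with Arntl and Dbp, and input gene lists; values of some genes of these lists are not reported here. The members and lists were chosen with earlier results of these data known. The fits on the other members and on 4 marker scores, the genes named beside Cry2 and Per3, the correlations over 17 mice and the adipocyte covariate were chosen after seeing the data.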

Additional observations from a re-analysis of the deposited data

Results flagged for a closer look

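Nr1d1 in control mouse 3 with clodronate liposomes was 4.92 on the log2(CPM + 1) scale (29.3 CPM), the lowest of its group and far from the next mouse, at 5.36 (40.0 CPM). The gap to that mouse was 0.72 of the range of the group. By this share it was the only value flagged in 40 gene and group combinations (10 genes in 4 groups), and chance flags about 1 in 20 groups. Gaps on the log2 scale were larger elsewhere: Nr1d1 was 6.59 in running mouse 1 with PBS liposomes, with the next mouse at 5.44.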

How the results depend on the processing

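In the 7 comparisons of groups and the fits on Arntl and Dbp, 0 clock genes passed under every alternative that could be run and with any mouse left out. Arntl fell below a filter of 5 CPM and has no value there. Of 873 values of single clock genes under the alternatives, 866 stayed within 1 SD of the reported value, 81 changed sign and 30 had an unadjusted p under 0.05. With 1 mouse left out, 1540 of 1540 stayed within 1 SD, 130 changed sign and 76 had an unadjusted p under 0.05. The SD is that of the gene between mice within groups, and most of the differences were smaller than it. A difference could thus vanish and still be counted, so these counts cannot show that a difference held. For Cry2, with an SD of 0.59, the difference for running averaged over liposomes went from -0.44 to as near 0 as -0.08 and was counted. Dbp with clodronate, averaged over activity, ranged from -0.47 to -0.22 over 12 alternatives and from -0.48 to -0.33 with a mouse left out. The Arntl interaction ranged from 0.61 to 1.73 over 11 alternatives. Without the 5 lymphocyte-rich mice, the Cry2 difference for running with clodronate was 0.29 in place of -0.39.

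The count of clock genes that passed was 1 on Cry2 and 1 on Per3. It was 2 and 2 with upper-quartile scaling, and 0 and 0 with the lymphocyte score as a covariate, without the lymphocyte-rich mice and with the adipocyte score as a covariate (added after seeing the data); the cause was not tested. With a mouse left out it ranged from 1 to 2 on Cry2 and from 0 (without running mouse 4 with PBS) to 2 on Per3. Genes passing on Cry2 ranged from 4 (without the lymphocyte-rich mice) to 1074 over alternatives and from 420 to 1079 with a mouse left out, and on Per3 from 34 to 672 and from 143 (without running mouse 4 with PBS) to 701. Genes passing for clodronate, averaged over activity, in either direction, numbered 31, with 0 (without the lymphocyte-rich mice) to 54 (mean of at least 5 CPM) under alternatives and 9 (without control mouse 3 with clodronate) to 146 (without control mouse 1 with clodronate) with a mouse left out. Leaving out running mouse 2 with clodronate took the 1 gene passing for running with clodronate to 236 and the 1 gene passing for clodronate in running mice to 51, and leaving out running mouse 1 with clodronate took them to 118 and 28. Without the lymphocyte-rich mice they were 12 and 14. For clodronate in control mice the 0 genes became 38 without control mouse 1 with clodronate.

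Replicate numbers here are the order of the sample titles within each group, and the labels do not pair mice. The titles skip a number before mouse 5 in both clodronate groups. Mice 5 with PBS and with clodronate may thus not hold the same place. Same-numbered running and control mice had mean correlations of -0.08 (6 pairs) and 0.18 (5 pairs), and 0 of 6 and 2 of 5 matched their own number best. With a replicate block on these numbers, which may join mice of different places, 0 clock genes passed in the comparisons of groups. In the fits 1 passed on Cry2 and 1 on Per3, and the 31 genes for clodronate became 11. With this block, genes of all kinds passing on Cry2 fell in number from 793 to 159 and on Per3 from 475 to 199. Upper-quartile scaling moved the median interaction of all genes from 0.09 to -0.01. Arntl, at 21 to 126 reads where above the floor, is the gene most limited by depth.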
